A study of Mus musculus with 43 samples.

Results

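The 12 libraries described here were the microglia of 6 Rag2-/- mice and 6 immunocompetent littermates, out of 43 libraries of 4 glial cell types, and they were chosen by their labels for cell type and genotype. Each library came from the cerebral cortex of 1 mouse at 3 months of age and held the RNA of the cells that bound to plates coated with an antibody against CD45. Pairs of littermates, numbered 1 to 6, were raised together by heterozygous parents of a B6.Cg-Rag2tm1.1Cgn/J by C57BL/6J colony. By their labels all 6 knockouts were Rag2 -/-, while 4 controls were heterozygous (pairs 1, 2, 3 and 5, Rag2 +/-) and 2 were wild type (pairs 4 and 6, Rag2 +/+). Pairs 1, 3 and 4 were male and pairs 2 and 5 female, whereas pair 6 joined a male control with a female Rag2-/- mouse. The allele is carried from conception in every cell. Absence of lymphocytes, absence of Rag2 itself and other changes at the altered locus therefore cannot be told apart. The question put to these libraries was how far the RNA of microglia in the healthy brain depends on lymphocytes.

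Microglia are the resident macrophages of the brain and are kept in a surveying state by signals such as TGF-beta, fractalkine and CSF1. CD45 is a tyrosine phosphatase on nearly all cells of the blood lineage, so plates coated with its antibody can also hold lymphocytes, monocytes, neutrophils and the macrophages of the brain's borders. Rag2 and Rag1 together cut DNA at the antigen receptor loci, and without either protein T cells and B cells do not mature, while natural killer (NK) cells, which use no rearranged receptor, still form. Mature T cells carry a receptor of alpha and beta, or gamma and delta, chains held together with the CD3 chains, and mature B cells and plasma cells make immunoglobulin from a heavy and a light chain.

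The gene counts of a library summed to between 6499417 and 13709286, and mitochondrial genes took 6.76% to 11.7% of them. Levels are given as CPM, a gene's count scaled to the same total of gene counts in each library. Defining genes of microglia were high: control libraries held on average 47.8 times the P2ry12 level of control astrocytes, 17.1 times that of OPCs (oligodendrocyte precursor cells) and 17.7 times that of oligodendrocytes, and for Tmem119 these values were 132, 24.4 and 36.1. Markers of the other glia were present at low levels, with Aldoc of astrocytes at 28.3 CPM against 3120 in control astrocytes and Mbp of oligodendrocytes at 63.4 CPM against 11900 in control oligodendrocytes. The library of control replicate 1 stood apart from the rest. It had the fewest counts, the largest mitochondrial share (11.7%) and the lowest median correlation with the other microglia libraries (0.934, against 0.955 to 0.965). Each replicate was a mouse, and libraries of a cell type shared a sequencing lane, so the tests took mice as their units. In fits that include genes of few counts, p-values may not measure the spread between mice well. In bulk RNA, fewer cells of a type and less RNA per cell cannot be told apart.

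The results set genes of the T cell receptor beside genes that mark microglia, and promoters of both kinds are shown here to place them. Cd3e and Cd3d encode the CD3 epsilon and delta chains, and P2ry12 the ADP receptor by which microglia sense injury. These are the RefSeq windows from 250 bases before to 50 bases after the gene start in GRCm38.p6, read 5′ to 3′ on the gene's strand, at chr9:45009562-45009861 (minus strand) for Cd3e, chr9:44981536-44981835 (plus strand) for Cd3d and chr3:59262936-59263235 (minus strand) for P2ry12. Capitals mark AGGAAGT or its reverse complement ACTTCCT, letters that the ETS family of transcription factors, among them ETS1 of lymphocytes and PU.1 of myeloid cells, is known to bind.
Cd3e: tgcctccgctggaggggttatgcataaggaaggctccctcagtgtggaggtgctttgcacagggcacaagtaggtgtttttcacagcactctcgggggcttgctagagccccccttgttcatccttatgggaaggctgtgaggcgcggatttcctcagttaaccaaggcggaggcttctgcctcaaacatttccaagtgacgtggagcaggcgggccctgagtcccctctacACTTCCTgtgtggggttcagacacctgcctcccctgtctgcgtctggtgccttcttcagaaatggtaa
Cd3d: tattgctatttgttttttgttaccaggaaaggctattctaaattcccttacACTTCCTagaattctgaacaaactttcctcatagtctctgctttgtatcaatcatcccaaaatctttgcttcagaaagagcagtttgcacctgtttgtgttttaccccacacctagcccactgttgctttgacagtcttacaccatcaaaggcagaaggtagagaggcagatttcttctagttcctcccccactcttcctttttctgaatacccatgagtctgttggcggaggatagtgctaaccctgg
P2ry12: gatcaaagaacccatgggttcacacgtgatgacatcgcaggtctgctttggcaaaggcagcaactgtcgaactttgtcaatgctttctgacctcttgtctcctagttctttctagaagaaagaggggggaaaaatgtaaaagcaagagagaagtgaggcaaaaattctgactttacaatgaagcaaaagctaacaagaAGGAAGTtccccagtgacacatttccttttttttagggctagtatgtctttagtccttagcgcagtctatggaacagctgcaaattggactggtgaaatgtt
The match began 18 bases before the start in Cd3e, 199 bases before it in Cd3d and 52 bases before it in P2ry12. Searched on both strands, these 7 letters occurred in 9.35% of the 32851 promoters of the table, in 3 of the 4 promoters matched for the T cell receptor complex list (Cd3e, Cd3d and Cd247), and in 4 of the 22 matched for the homeostatic microglia list. In the larger list of T cell coreceptors and signalling genes they occurred in 3 of the 21 matched promoters (14.3%). A match describes the letters only, and nothing about a factor follows from it.

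RNA of the T cell receptor complex was lower in Rag2-/- libraries. The summed level of the 11 genes of the complex, the chains of CD3, the CD247 (zeta) signalling chain and the constant regions of the 4 receptor chains, was 6.15, 10.7, 5.12, 8.23, 13.1 and 9.99 CPM in control replicates 1 to 6. In Rag2-/- replicates 1 to 6 it was 2.31, 3.12, 1.65, 2.13, 1.96 and 4.02 CPM. Every control lay above every Rag2-/- library, the sum was lower in the knockout of all 6 pairs, and the ratio of the means was 0.286, or 0.269 without control replicate 1. Over the 12 libraries this was the 1 list of 33 whose summed levels did not overlap between the genotypes.

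Cd3e (chr9:44910037-44920925 in GRCm39) was the clearest single case. It had 9, 30, 8, 22, 17 and 39 counts in control replicates 1 to 6 and 0 counts in each of the 6 Rag2-/- libraries. The groups did not overlap, which was true in the lower direction of 0.0456% of the 32912 genes with a count in microglia. Against a floor of 3 counts per library, the Cd3e level of the knockouts was at least 7.22-fold lower, and its adjusted p was 1.25e-08 by the quasi-likelihood test of edgeR, with Benjamini-Hochberg adjustment over all genes with a count. Such floors, like the counting intervals below, cover counting error only, since amplified copies of a molecule are not independent.

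The partner chains followed with fewer counts. Cd3d had 12, 4, 15, 0, 7 and 5 counts in controls, and 1 count in Rag2-/- replicate 2 was the only one in its group. Pooled over libraries and corrected for depth, the controls had 45.8 times the Cd3d of the knockouts, with a 95% counting interval of 7.79 to 1849.9. Cd3g had 0, 11, 0, 1, 3 and 9 counts in controls against 2, 0, 0, 0, 1 and 0, and the groups overlapped at 0. The constant region of the receptor's alpha chain, Trac, had 1, 7, 2, 9, 12 and 16 counts in controls and at most 2 in a Rag2-/- library. Trbc2, 1 of the 2 beta constant regions, had 3 to 16 counts in controls and 0 to 4 in Rag2-/- mice, whereas Trbc1 had 0 to 16 and 0 to 11. The beta constant regions are near-identical copies, so reads between them are uncertain. Among the gamma constant regions, Trgc2 was counted in control replicates 5 and 6 alone, with 7 counts in each, Trgc1 in control replicate 6 alone, with 8, and Trgc4 in every library of both groups. The delta region Trdc had no count in any of the 12 libraries.

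Counted over the list, 1 of the 10 members with a count passed an adjusted p of 0.05 without a filter on low counts (Cd3e), where 0.0213% of all genes were called lower. A further 5 (Cd3d, Cd3g, Trac, Trbc2 and Trgc2) were lower at an unadjusted p under 0.05 only, where the share was 2.18% over all genes, and none was higher. In 6 of the 11 genes every Rag2-/- library held 3 counts or fewer while a control held more, a pattern found in 5.72% of genes with a count, and the reverse pattern was found in none of the 11 and in 6.45% of genes. Cd247, at 1.84 ± 1.30 CPM in controls and 1.26 ± 0.463 in Rag2-/- mice (SD, n = 6 each), was the 1 member to pass the low-count filter and did not pass the test. Of its exonic bases, 51.1% overlap a gene on the other strand, and strand use in the counting is not given in the sources used here.

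**Figure D1:**
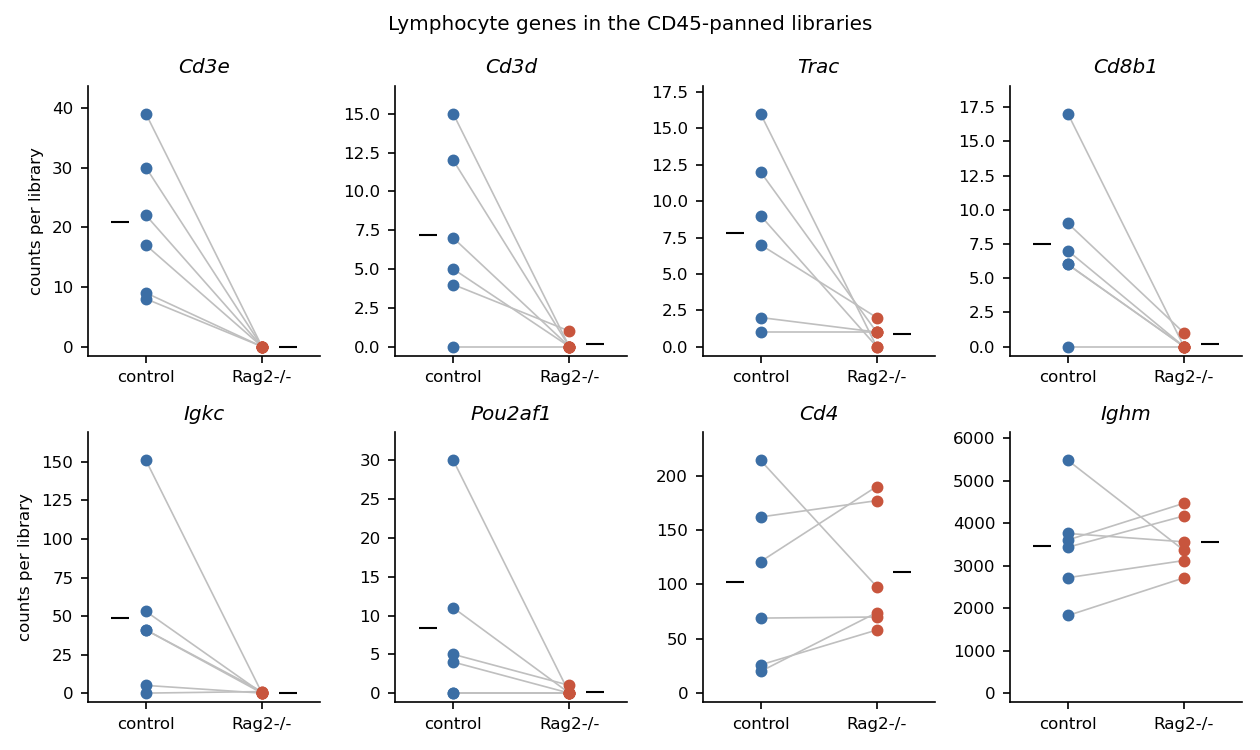
Counts per library (y axis, linear) of 8 lymphocyte genes in control (blue) and Rag2-/- (red) microglia, with grey lines joining littermates and a black tick at the group mean. Cd3e, Cd3d, Trac, Cd8b1, Igkc and Pou2af1 lay at 0 to 2 counts in the Rag2-/- libraries, while Cd4 (58 to 190) and Ighm (2715 to 4471) stayed within the control range.

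The coreceptors and signalling genes of T cells split between genes that were nearly absent from Rag2-/- libraries and genes that were counted alike in both. Cd8a and Cd8b1, the chains of the CD8 coreceptor of cytotoxic T cells, belonged to the first kind. Cd8b1 had 0, 7, 6, 6, 17 and 9 counts in controls and 1 count in all Rag2-/- libraries together, a pooled ratio of 47.9 (95% counting interval 8.17 to 1934). Cd8a had 5, 19, 5, 16, 1 and 5 counts in controls and 2 counts in Rag2-/- replicate 5 alone, a pooled ratio of 27.2 (interval 7.14 to 230.25). The groups of both genes overlapped in 1 control library, and neither passed correction without the filter (edgeR, adjusted p = 0.113 for Cd8a and 0.121 for Cd8b1). Cd8b1 passed when control replicate 1 was left out (edgeR, adjusted p = 0.0440), and Cd8a when the control or the Rag2-/- library of replicate 5 was.

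Ubash3a, a brake on T cell receptor signalling, was called. It had 33, 11, 1, 2, 4 and 14 counts in controls and 0, 0, 0, 0, 2 and 1 in Rag2-/- mice, with an adjusted p of 0.0258 (edgeR, quasi-likelihood test, no filter). The call was lost when control replicate 1 or 2, or Rag2-/- replicate 1, 2, 3 or 4, was left out (edgeR, adjusted p up to 0.649), and with littermate pair as a term in the model (adjusted p = 0.321). Cd2, an adhesion receptor of T and NK cells, had 3 to 15 counts in controls and 0 to 6 in Rag2-/- mice. Ctla4, an inhibitory receptor, had 1 to 13 and 0 to 4. Cd40lg, Ifng, Themis, Sh2d1a, Sit1 and Trat1 were counted in controls, with at most 5 counts in a library, and in no Rag2-/- library. These genes were picked after their values were seen, and the share of all genes with this pattern was not computed. In 4 of the 31 list genes with a count, every Rag2-/- library held 3 counts or fewer while a control held more. That pattern was found in 5.72% of all genes with a count, and the reverse in 0 list genes and 6.45% of all genes.

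Other genes known from T cells had similar counts in both groups. Cd4, the coreceptor of helper T cells that macrophages also make, had 20 to 214 counts (10.1 ± 6.23 CPM) in controls and 58 to 190 (10.6 ± 4.68 CPM) in Rag2-/- mice. Foxp3, the regulator of regulatory T cells, had 6 to 43 counts against 14 to 65, and Lck, the kinase bound to the coreceptors, had 10 to 40 against 8 to 42. Il7r stood at 22.4 ± 5.40 CPM in controls and 16.9 ± 3.45 in Rag2-/- mice, and S1pr1 at 36.8 ± 9.65 and 38.8 ± 11.02. Cd5 had 8.52 ± 2.65 CPM in controls and 10.0 ± 3.70 in Rag2-/- mice. Without the filter, 1 of the 31 genes of this list with a count was called (Ubash3a; 0.0213% of all genes were called lower), 11 were lower at an unadjusted p under 0.05 (2.18% of all genes) and none was higher (2.38%), and the summed level was 85.4 to 143 CPM in controls and 74.2 to 139.5 in Rag2-/- mice, so the groups overlapped.

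Immunoglobulin light chain RNA was also lower in Rag2-/- libraries. Igkc (chr6:70703419-70703950 in GRCm39), the constant region of the kappa light chain, had 53, 151, 5, 41, 41 and 0 counts in control replicates 1 to 6 and 0, 0, 0, 0, 1 and 1 in Rag2-/- mice. Control replicate 6 therefore lay with the knockouts, and the other 5 controls lay above all of them. The pooled ratio was 155 (95% counting interval 42.5 to 1285), and edgeR's test without the filter gave an adjusted p of 7.51e-23. DESeq2 on all genes gave a far larger adjusted p of 0.0105, so the strength of the call depends on the fit. The heavy chain constant regions of switched antibody came from single mice: 143 of the 143 control counts of Ighg1 (IgG1) were in control replicate 2, and 49 of the 51 of Igha (IgA) in control replicate 5. Ighg1 was called without the filter (edgeR, adjusted p = 0.00023), but not with littermate pair as a term (adjusted p = 0.652), and without control replicate 2 its fitted log2 difference turned to 1.43, and the 4 counts in Rag2-/- replicate 2 were then the only ones left. Ighg2b had 17 counts in control replicate 4 and 22 in control replicate 6. Ighg2c had no count in controls and 7 and 2 counts in Rag2-/- replicates 3 and 5. The IgG regions are close copies, so reads may be divided among them.

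Genes of the B cell itself were few in counts. Pax5, the factor that fixes B cell identity, had 0, 1, 4, 2, 12 and 0 counts in controls and none in any Rag2-/- library. Pou2af1, a coactivator of immunoglobulin genes, had 0, 11, 4, 0, 5 and 30 counts in controls and 1 count in Rag2-/- replicate 5. It passed correction when control replicate 1 was left out (edgeR without the filter, adjusted p = 0.0437), and not with all libraries (adjusted p = 0.121). Fcmr, Blk, Vpreb3, Iglc1, Iglc2, Iglc3 and Ly6d were also absent from Rag2-/- libraries, with at most 6 counts in a control. They were picked after their values were seen, and the share of all genes with this pattern was not computed. Spib, a transcription factor of B cells and plasmacytoid dendritic cells, had 2 to 17 counts in controls and 0 to 5 in Rag2-/- mice (unadjusted p = 0.0281).

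The heavy chain of IgM was counted alike in both groups. Ighm stood at 357 ± 60.3 CPM in controls and 347 ± 28.7 in Rag2-/- mice (SD, n = 6 each), with a fitted log2 difference of -0.03 (95% confidence interval -0.25 to 0.18). The overlap was complete, with 1828 to 5480 counts in controls and 2715 to 4471 in Rag2-/- mice. Ighd of IgD (14.1 ± 4.14 and 13.955 ± 2.39 CPM), the adaptor Bank1 (78.8 ± 18.4 and 75.8 ± 13.2 CPM) and Tnfrsf13b, a receptor for B cell survival factors (18.7 ± 3.64 and 19.6 ± 7.62 CPM), were likewise at similar levels. Ighm was also counted in all 31 libraries of the other cell types, at 7.27 ± 3.45 CPM in control astrocytes. It ranged from 11.9 to 41.4 CPM in control OPCs and from 11.3 to 53.8 CPM in control oligodendrocytes. Over the B cell and plasma cell list, 2 of 31 genes with a count were called lower without the filter (Igkc and Ighg1), 12 were lower and 1 was higher (Ighg2c) at an unadjusted p under 0.05 (2.18% and 2.38% of all genes, 4.56% together), and 10 were at 3 counts or fewer in every Rag2-/- library but not in controls (5.72% of all genes), while 2 showed the reverse (6.45% of all genes). The summed level, set mostly by Ighm, was 391 to 615 CPM in controls and 401 to 513 in Rag2-/- mice.

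NK cells form without Rag2, and the counts of NK and cytotoxic genes overlapped between the groups. Ccl5, a chemokine of cytotoxic cells and of activated macrophages, stood at 88.7 ± 24.3 CPM in controls and 86.3 ± 26.9 in Rag2-/- mice, and Gzmb, a granule protease, had 0 to 41 counts against 4 to 27. Klrb1c, which encodes the NK1.1 antigen, went the other way, with 1, 1, 0, 1, 0 and 1 counts in controls and 1, 4, 3, 12, 9 and 9 in Rag2-/- mice. The groups met at 1 count, and the unadjusted p was 0.0125 (edgeR without the filter, adjusted p = 0.925). Of 22 genes with a count, 1 was higher (Klrb1c) and 1 lower (Txk) at an unadjusted p under 0.05, near the shares of all genes (2.38% higher and 2.18% lower). The summed level, set mostly by Ccl5, was 85.3 to 167 CPM in controls and 77.7 to 150.3 in Rag2-/- mice.

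**Figure D2:**
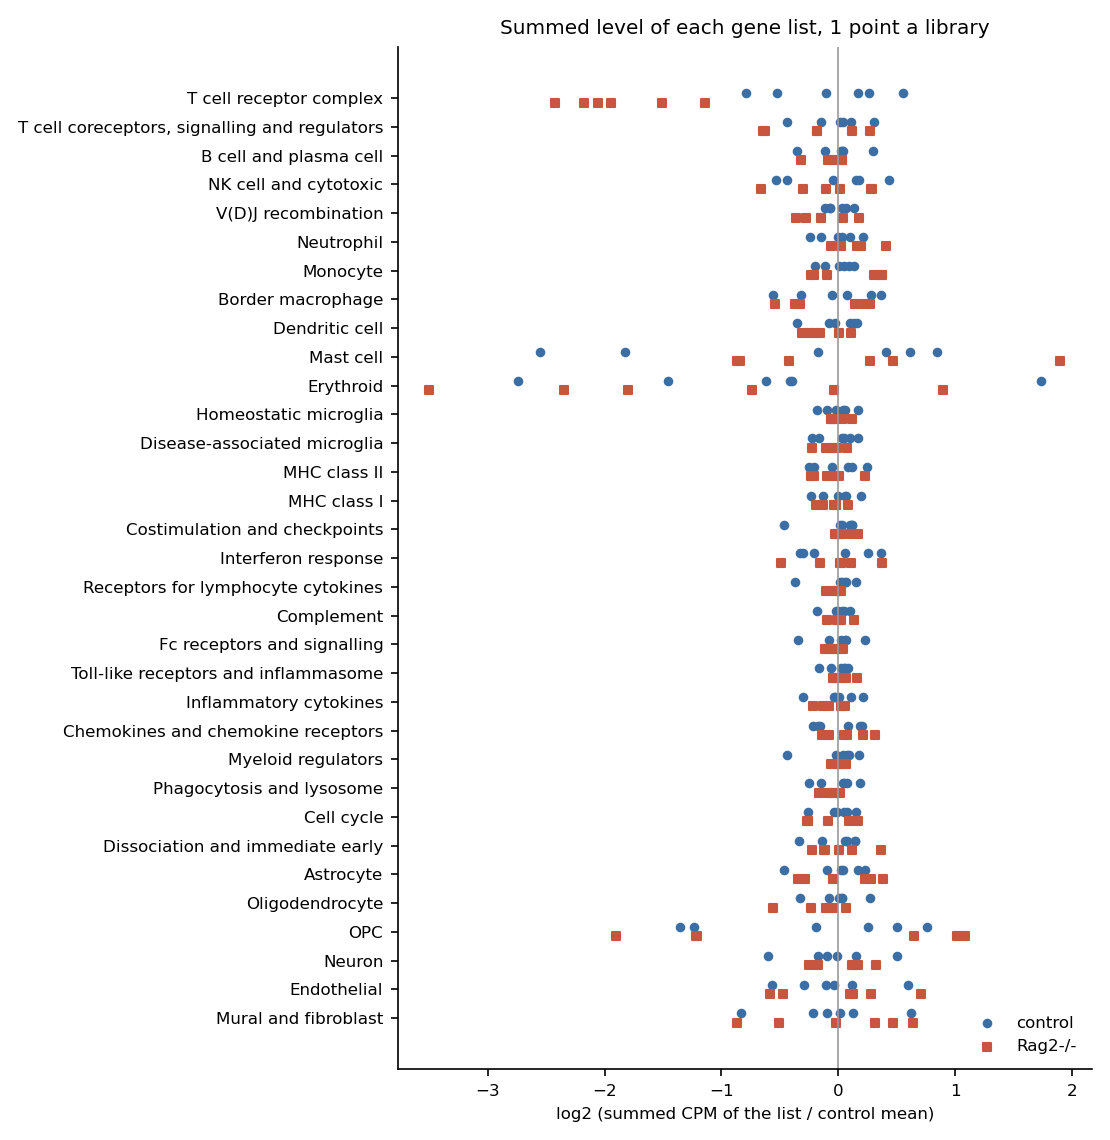
Summed CPM of each of 33 gene lists in every library, as log2 of its ratio to the control mean (x axis), with 1 blue circle per control and 1 red square per Rag2-/- library. The T cell receptor complex is the list whose groups do not overlap, and the mast cell, erythroid and OPC lists are the ones that spread most within a genotype.

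Genes of the recombination machinery were counted as follows. Rag1 had no count in any of the 12 libraries, and Rag2 had 1 count in control replicate 3 and 1 in control replicate 5, too few to check the genotype labels. The repair genes that finish V(D)J joining and serve every cell, such as Dclre1c (Artemis) at 145 ± 11.3 and 137 ± 26.1 CPM, were at similar levels, and none of the 9 genes of this list with a count had an unadjusted p under 0.05. Iftap, whose span in the annotation contains Rag2, had 14, 33, 49, 97, 34 and 131 counts in controls and 1 count in Rag2-/- replicate 6 alone, a pooled ratio of 381 (95% counting interval 68.0 to 15098). It was the 1 gene called past the filter, with an adjusted p of 5.70e-06 (edgeR, quasi-likelihood test).

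Across all genes, few differences between genotypes passed correction. Of 15003 genes past the low-count filter (edgeR's filterByExpr), 0.00667% were called, all of it Iftap, and 2.9% (435 genes) had an unadjusted p under 0.05, with 1.49% lower and 1.41% higher in Rag2-/- mice. With littermate pair as a term Iftap was again the 1 gene called, and the number at an unadjusted p under 0.05 was 737. The second smallest adjusted p was 0.9993. The 9 genes called without the filter were Igkc, Iftap, Cd3e, Ighg1, Ubash3a, Ext2 and Hbb-bs, which were lower, and Lzts2 and Pm20d1, which were higher, or 0.0273% of 32912 genes (0.0213% lower and 0.00608% higher). With littermate pair as a term, Igkc, Iftap, Cd3e and Ext2 passed again and the other 5 did not. DESeq2 on all genes called Iftap, Cd3e and Igkc (0.00916% of the genes it gave an adjusted p). Ext2, an enzyme of heparan sulfate synthesis, had 99, 721, 553, 265, 333 and 333 counts in controls and 154, 138, 281, 213, 258 and 229 in Rag2-/- mice. Lzts2 had 29 to 76 counts in controls and 39 to 322 in Rag2-/- mice, the highest in replicate 4, Pm20d1 had 0 to 2 and 0 to 51, and Hbb-bs of red blood cells ranged from 115 to 2744 and from 100 to 1712. When libraries were left out in turn, the call of Lzts2 was lost without Rag2-/- replicate 4 and that of Ext2 without control replicate 2. The call of Pm20d1 was lost without control replicate 2 or Rag2-/- replicate 2 or 4, and that of Hbb-bs without control replicate 2 or 6 or Rag2-/- replicate 2, 3 or 5. Ext2, Lzts2 and Hbb-bs lay past the filter, and in the fit with it their adjusted p was 0.9993 (edgeR). In edgeR's fit without the filter the adjusted p was 4.45e-05 for Ext2 and 0.00581 for Lzts2. That of Iftap was 2.30e-21, against 5.70e-06 with the filter. How far p-values of the fit without the filter reflect the spread between mice is thus uncertain. Next to Iftap, the genes with the smallest p in the fit with the filter that were lower were Ext2, Gm50343, Dnase1l1, Wdr46-ps, Lzic, Eps8l1, Gm44103, Ddx1 and Brix1. Those that were higher were Lzts2, Atp6v0c-ps2, Gm16161, Ccdc96, Trp53rkb, Gm12474, Gm16998, Lemd2, Nudt1 and 1 gene without a symbol (ENSMUSG00000087593). None of these 19 passed correction in the fit with the filter, and Brix1 (44.6 ± 3.29 against 33.8 ± 4.15 CPM), Atp6v0c-ps2 (53.6 ± 10.7 against 72.3 ± 5.86 CPM), Gm16161, Ccdc96 and Gm16998 were those whose CPM did not overlap between groups, as in 0.0733% of tested genes in the lower and 0.04% in the higher direction (0.0456% and 0.0486% of all genes with a count).

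The programs of microglia themselves differed little between the genotypes. In 14 lists of microglial state, antigen presentation, immune sensing and phagocytosis, 268 of 285 genes passed the filter and none was called. At an unadjusted p under 0.05 there were 4 higher and 6 lower, or 3.73% of them, against 2.9% of all tested genes. Their median fitted log2 difference was 0.01, with a median standard error of 0.13, and 260 of them (97.0%) lay within 0.5 on the log2 scale, as did 90.8% of all tested genes. For 246 of the 268 the 95% confidence interval excluded a change of 1 on the log2 scale in either direction. DESeq2 on the genes past the filter and limma's voom called 1 gene each, Iftap, and so none of these.

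**Figure D3:**
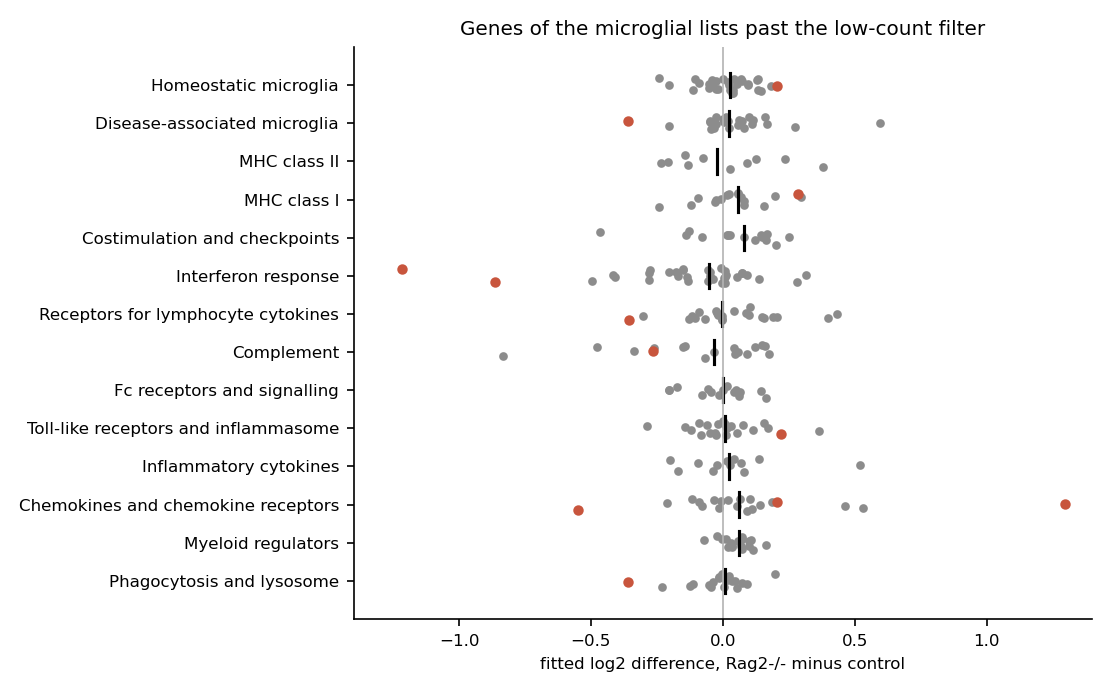
Fitted log2 difference, Rag2-/- minus control (x axis), of each gene past the low-count filter in 14 microglial lists, with a black bar at the list median and red points at an unadjusted p under 0.05. Medians lie between -0.05 and 0.08, and the points farthest out are Ccr6 at 1.30 and Ifit2 at -1.22.

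Homeostatic genes were at similar levels. P2ry12 had 833 to 1161 CPM in controls and 836 to 1107 in Rag2-/- mice, and the fitted log2 difference was 0.02 (95% confidence interval -0.22 to 0.26). Tmem119, a surface protein of microglia, stood at 588 ± 114 and 557 ± 63.8 CPM, a difference of -0.05 (-0.36 to 0.26), and its highest value was in control replicate 1, without which the difference was 0.12. Cx3cr1, the fractalkine receptor, was at 538.8, 797.4, 739, 850.7, 836.1 and 751 CPM in controls and at 831, 885.2, 945.4, 779.6, 814.5 and 880 in Rag2-/- mice. The groups overlapped, control replicate 1 was the lowest, and the fitted log2 difference of 0.21 (0.01 to 0.41) had an unadjusted p of 0.0447 and did not pass correction (edgeR, adjusted p = 0.9993). Without control replicate 1 the Cx3cr1 difference was 0.19. Itgb5 (343.5 ± 59.7 and 324 ± 33.3 CPM), Tgfb1 (329 ± 49.2 and 354 ± 36.7 CPM) and Aif1, which encodes IBA1 (238 ± 37.4 and 203.5 ± 40.8 CPM), differed by less than the SD between mice. The fitted log2 difference of Aif1 was -0.20 with all libraries and -0.05 without control replicate 1. Csf1r, the receptor that microglia need to survive, stood at 4487 ± 585 and 4502 ± 312 CPM, and Sall1, a transcription factor that marks microglia among macrophages, at 211 ± 67.0 and 221 ± 28.8. In all, 31 of 31 homeostatic genes that could be matched passed the filter, none was called, and their fitted differences ran from -0.24 to 0.21.

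**Figure D4:**
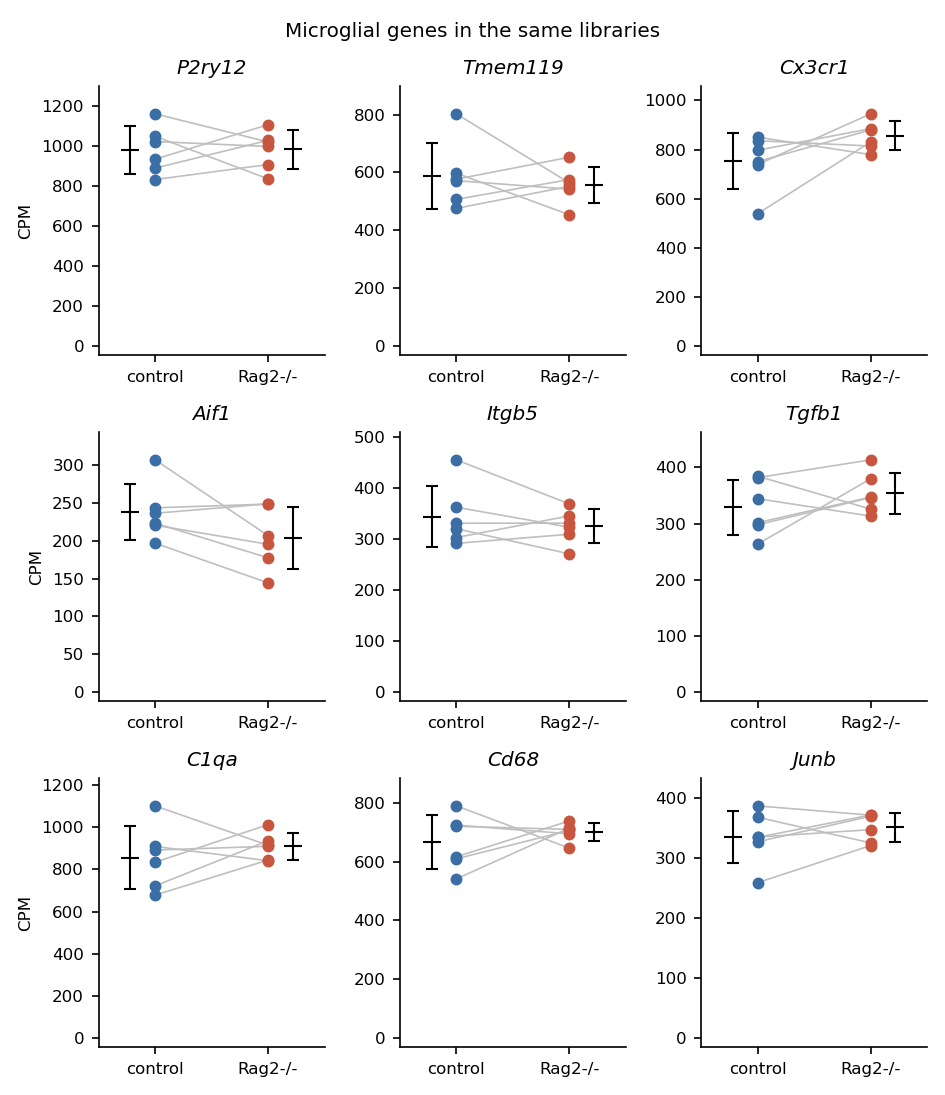
CPM (y axis, linear from 0) of 9 microglial genes in control (blue) and Rag2-/- (red) libraries, with grey lines joining littermates and the group mean ± SD in black. The genotypes overlap for every gene, and control replicate 1 is the lowest control for Cx3cr1 (538.8 CPM) and the highest for Tmem119 (802.4 CPM).

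Genes that are known to rise in microglia near damage or plaques came next. Apoe had 1018 ± 389 and 1044 ± 296 CPM, Trem2, the lipid receptor that drives this state, 286 ± 47.9 and 303 ± 30.2, and Cst7 11.2 ± 3.06 and 13.3 ± 5.41. Cd68 of the lysosome stood at 667 ± 92.5 and 701.5 ± 30.7 CPM, a fitted log2 difference of 0.10 (-0.11 to 0.31). The protease Ctsl was lower, at 1005 ± 277 CPM in controls and 760.4 ± 74.4 in Rag2-/- mice, with a log2 difference of -0.36 (standard error 0.14) and an unadjusted p of 0.0164, and it failed correction. Gpnmb, a glycoprotein of lipid-laden macrophages, lay under the filter with 2, 3, 0, 4, 7 and 6 counts in controls and 25, 42, 7, 12, 26 and 3 in Rag2-/- mice. The groups overlapped in Rag2-/- replicate 6, and its log2 difference of 2.21 had an unadjusted p of 0.000824 (edgeR without the filter, adjusted p = 0.493). Of the 25 genes of this list past the filter, Ctsl was the 1 with an unadjusted p under 0.05, and the median difference was 0.02.

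Antigen presentation, through which microglia could meet T cells, was at similar levels in both genotypes. The invariant chain Cd74 stood at 359.5 ± 76.2 CPM in controls and 379 ± 57.5 in Rag2-/- mice, and H2-Ab1 of the class II receptor at 198 ± 30.6 and 165 ± 31.8, a log2 difference of -0.23 (-0.49 to 0.02). None of the 10 class II genes had an unadjusted p under 0.05, and their sum was 845 to 1196 and 857 to 1180 CPM. In class I, B2m stood at 1912 ± 220 and 1861 ± 180 CPM. Tapbp, which loads peptides, was the 1 of 17 class I genes with an unadjusted p under 0.05, higher by 0.29 (standard error 0.13, adjusted p = 0.9993 in edgeR's test). Among ligands and checkpoints that address T cells, Icosl stood at 418 ± 88.4 and 472 ± 54.9 CPM, Vsir at 537 ± 60.6 and 537 ± 40.7, and none of 15 genes past the filter had an unadjusted p under 0.05. Under the filter, Tnfsf4, the OX40 ligand, had no count in controls and 0 to 3 in Rag2-/- mice (unadjusted p = 0.0498).

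Receptors for the cytokines of lymphocytes and the genes that interferon induces were examined next. Ifngr2, a chain of the interferon gamma receptor, stood at 277.5 ± 32.5 and 290 ± 24.6 CPM, and Il10ra at 283 ± 69.8 and 284 ± 36.2. Il13ra1, a chain of the receptor for IL-4 and IL-13, was at 118.5 ± 18.6 and 91.8 ± 11.8 CPM, a log2 difference of -0.35 (standard error 0.14, unadjusted p = 0.0187 and adjusted p = 0.9993 in edgeR's test), or -0.22 without control replicate 1. Il17rc, a receptor chain for IL-17 that lay under the filter, had 4 to 17 counts in controls and 0 to 9 in Rag2-/- mice (unadjusted p = 0.0263). Ifit2, an antiviral protein, had 34, 40, 23, 55, 33 and 63 counts in controls and 10, 25, 13, 17, 28 and 38 in Rag2-/- mice. The groups overlapped, and its log2 difference of -1.22 (standard error 0.39) had an unadjusted p of 0.00525. Ifit3 was lower by 0.86 at an unadjusted p of 0.0432. These were the 2 of 34 interferon response genes past the filter with an unadjusted p under 0.05, the median over the list was -0.05, and the summed level was 1098 to 1772 CPM in controls and 978 to 1786 in Rag2-/- mice.

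Complement, Fc and Toll-like receptor genes overlapped between the groups, with single genes at an unadjusted p under 0.05. C1qa, the A chain of C1q, stood at 856 ± 151 and 910 ± 63.6 CPM, a log2 difference of 0.09 (-0.14 to 0.32). Fcer1g, the shared signalling chain of Fc receptors, stood at 601 ± 108 and 626 ± 63.5 CPM, and none of 15 genes of its list had an unadjusted p under 0.05. Tlr9, a sensor of DNA, was at 396 ± 54.9 and 455.5 ± 28.1 CPM, higher by 0.22 at an unadjusted p of 0.0345, while Tlr2 stood at 665 ± 59.7 and 662 ± 36.6.

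Among secreted signals, Il1b (1569 ± 253 and 1472 ± 140 CPM) and Tnf (1352 ± 137 and 1436 ± 149 CPM) lay close together, and none of 12 inflammatory cytokine genes past the filter had an unadjusted p under 0.05. Of 20 chemokine and chemokine receptor genes, Cxcl1 was lower by 0.55 (unadjusted p = 0.0263) and Ccr6 was higher by 1.30 (standard error 0.45, unadjusted p = 0.00896), with adjusted p = 0.9993 for both in edgeR's test. Without control replicate 1 the log2 difference of Cxcl1 was -0.30. Ccr6 had 2, 19, 8, 10, 15 and 14 counts in controls and 23, 13, 32, 29, 76 and 15 in Rag2-/- mice, so the groups overlapped and replicate 5 of the knockouts was the highest. The myeloid regulators, with Spi1 (PU.1) at 590 ± 90.7 and 593.5 ± 29.9 CPM, and the phagocytosis and lysosome genes, with Ctss at 2616 ± 293 and 2354 ± 289 CPM, held no gene at an unadjusted p under 0.05 except Ctsl.

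Markers of other cells bound by the plates were checked against the same split. Border macrophage genes were present at similar levels, with Mrc1, the mannose receptor, at 378 ± 73.4 and 344.5 ± 90.7 CPM and Pf4 at 111.5 ± 48.9 and 98.1 ± 29.2, and their sum was 885 to 1674.5 CPM in controls and 896 to 1572 in Rag2-/- mice. Ly6c2 of monocytes had 12, 7, 4, 20, 11 and 52 counts in controls and 0, 8, 7, 2, 7 and 3 in Rag2-/- mice, with overlap, a log2 difference of -1.94 and an unadjusted p of 0.00677 (edgeR without the filter, adjusted p = 0.925). Ccr2 of the same cells stood at 5.51 ± 1.14 and 5.67 ± 2.33 CPM, and the monocyte list summed to 155 to 196 and 152 to 231 CPM. The summed levels of the neutrophil (321 to 439 and 363 to 503 CPM), dendritic cell (165 to 235 and 169 to 227), mast cell (0.837 to 8.83 and 2.69 to 18.4) and erythroid lists (18.8 to 417 and 11.1 to 233) also overlapped. Markers of other brain cells did so too, at 199 to 321 and 216 to 357 CPM for astrocytes, 103.55 to 157 and 88.2 to 135 for oligodendrocytes, 22.7 to 98.6 and 15.6 to 123 for OPCs and 193 to 416 and 247 to 368 for neurons. Gad2 of inhibitory neurons had 16 to 94 counts in controls and 5 to 34 in Rag2-/- mice (unadjusted p = 0.0401). In 3 of these lists every gene past the filter was lower in Rag2-/- mice, none at an unadjusted p under 0.05. They were the dendritic cell (10 genes, median log2 difference -0.20), erythroid (4 genes, -0.56) and oligodendrocyte lists (5 genes, -0.11). The erythroid sum was lower in the knockout of 2 pairs. Without the filter, 3 of 6 erythroid genes with a count were lower at an unadjusted p under 0.05 (2.18% of all genes). Endothelial genes summed to 30.6 to 68.6 and 30.2 to 73.8 CPM, and mural and fibroblast genes to 26.2 to 71.8 and 25.6 to 72.6. Cell cycle genes summed to 154 to 206 and 153 to 207 CPM, and under the filter Cdk1 had 4 to 26 counts against 0 to 13 (unadjusted p = 0.0441) and Birc5 0 to 1 against 1 to 7 (unadjusted p = 0.0292). The dissociation and immediate early list, which cell isolation is known to raise, summed to 9413 to 13142 and 10148 to 15346 CPM, and in it Junb stood at 335 ± 43.9 and 351 ± 23.6 CPM. Whether any of these cells contributed to the values above was not tested.

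The summed T cell receptor complex level in the other cell types was 1.47 to 3.77 CPM in control and 1.02 to 4.29 CPM in Rag2-/- astrocytes, and at most 3.35 CPM in any OPC or oligodendrocyte library, close to the Rag2-/- microglia. Cd3e was counted in 2 of their 31 libraries, with 1 count in an OPC control and 18 in an oligodendrocyte library of a Rag2-/- mouse, and Cd3d in none. Igkc had 73 to 352 counts in oligodendrocytes of controls and 121 to 321 in those of Rag2-/- mice, and at most 3 counts in astrocytes. In OPCs it had no count in controls and 10 counts in Rag2-/- replicate 3 alone. Trac had 3 to 26 counts in astrocytes of controls and 3 to 28 in those of Rag2-/- mice, and Cd8a had 2 to 69 and 3 to 18 in OPCs. In a joint fit of all 43 libraries, the genotype effect in microglia minus its average over the remaining 3 cell types was called for 2 of 21368 genes (0.00936%) by edgeR's test, and for 0.153% of genes without the filter. They were Igkc, at a log2 difference of -8.51, and Otud7a, a deubiquitinase gene, at 3.82, both with an adjusted p of 0.00519 (edgeR). The size for Igkc is uncertain, since the average includes OPCs, where no control held a count. The average also includes oligodendrocytes, which by the study's methods were panned on plates of GalC hybridoma. The source of their Igkc counts was not tested. Otud7a had 0, 1, 0, 1, 1 and 3 counts in microglia of controls and 13, 9, 3, 12, 22 and 14 in those of Rag2-/- mice, which met at 3 counts, against 15 to 133 in every library of the other cell types. In microglia alone Otud7a was not called (adjusted p = 0.269 in edgeR without the filter and 0.515 in DESeq2 on all genes). For genes at 0 in nearly all other libraries, such as Cd3e, the joint fit gave no usable estimate. It also held no term for mouse or pair, so libraries of different cell types from the same pair were treated as independent.

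**Figure D5:**
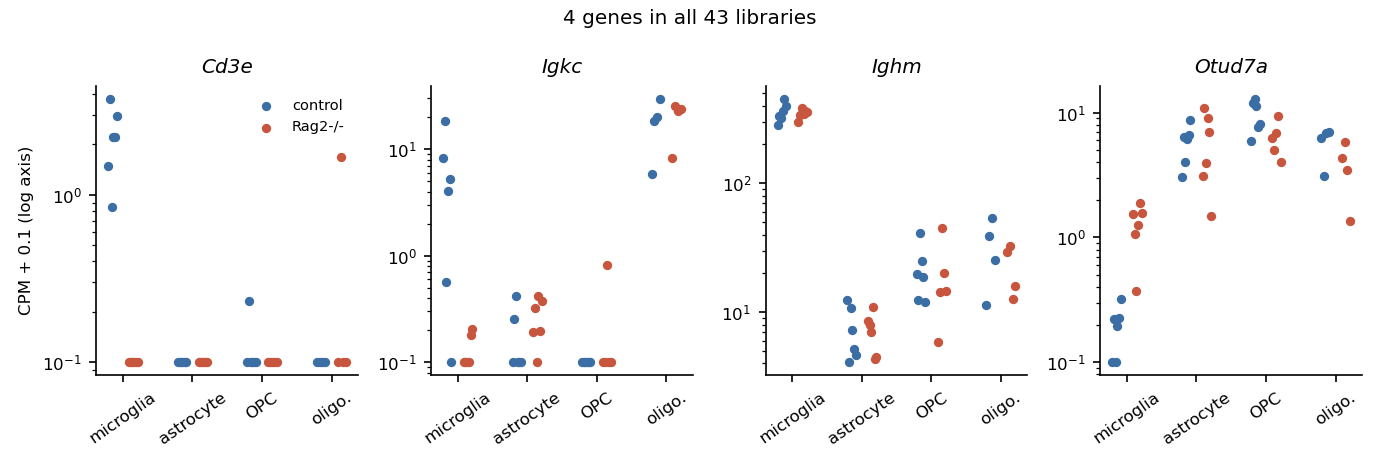
CPM + 0.1 on a log axis (y) of 4 genes in all 43 libraries by cell type, controls in blue and Rag2-/- in red. Cd3e is confined to control microglia apart from 2 libraries, Igkc is nearly absent from Rag2-/- microglia but present in oligodendrocytes of both genotypes, Ighm is highest in microglia of both, and Otud7a in control microglia lies below all other groups.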

How the data were processed

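RNA of 12 microglia libraries, 1 per mouse, was compared between 6 controls and 6 Rag2-/- littermates. As deposited by the authors, the values are whole-number counts of read pairs per gene, made from amplified cDNA with STAR 2.7.8a on GRCm39 and HTSeq; the counting mode and strand setting are not given in the sources used here. Sums of pairs assigned to no gene, 48.9% to 52.0% of a library, entered neither library sizes nor tests. CPM were computed on the total of gene counts.

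The test of genotype was that of edgeR 4.0.16 in R 4.3.3 (TMM scaling, quasi-likelihood, terms sex and genotype, Benjamini-Hochberg adjustment over all genes tested, threshold 0.05). The low-count filter was filterByExpr at its settings of 10 counts per library and 15 in total, and genes under it were taken from a fit of all genes with a count. Confidence intervals are 95%. Pooled ratios were corrected for depth, with exact binomial intervals. A joint fit of all 43 libraries compared the genotype effect with that in astrocytes, OPCs and oligodendrocytes. Its terms were sex and the groups of cell type and genotype, with none for mouse or pair. DESeq2 1.42.0, limma 3.58.1 (voom), other filters, a littermate block and leaving out libraries were alternatives. The fits were tested on simulated data.

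The mice were littermate pairs by the study's methods, numbered in the labels. Deviations of a pair's libraries from their group means correlated by 0.0765 to 0.123, and those of unrelated libraries by -0.0191 on average. Centring on group means ties the second value to the first, so it is no separate background. Sex, which most pairs shared, was not removed, so the pairing rests on the labels and the study's methods. The smallest chi-square between libraries of a group was 8.18 per gene, so each library was counted separately.

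Symbols and coordinates came from GENCODE M39, which held 54749 of 55416 identifiers, and 558 of 561 listed symbols matched. The members and the 33 gene lists were chosen with earlier results of these data known. Values are given for the whole T cell receptor complex list, the 4 most abundant members of each list, members at an unadjusted p under 0.05 (in the fit with the filter for genes past it, otherwise without it) or without overlap, the 10 smallest p in each direction, and 9 microglial genes the study examined. Cst7, Trem2, Apoe, Sall1, Gzmb, Foxp3, Lck, Pm20d1, Otud7a and genes counted in no Rag2-/- library were added after their values were seen. Some members of the lists are counted in them but not reported here by name.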

Additional observations from a re-analysis of the deposited data

Results flagged for a closer look

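Among 146 sets of 6 libraries (1 gene or list in 1 genotype), 15 held a library whose distance to its nearest neighbour exceeded 0.625 of the whole range. For normally distributed values chance gives this in about 1 in 20 sets. Sets of low counts with ties at 0, such as Ighg1, need not follow that share. In the lymphocyte lists these were single mice. Ubash3a stood at 5.08 CPM in control replicate 1 (next 1.33), Igha at 6.09 in control replicate 5 (next 0.242) and Pax5 at 1.49 in control replicate 5 (next 0.372). Ighg1 stood at 17.3 CPM in control replicate 2 and at 0.43 in Rag2-/- replicate 2, with 0 in all other libraries.

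Besides Ubash3a, control replicate 1 was the library set apart in 5 cases. It had the highest Tmem119 of the controls (802 CPM, next 597) and the lowest Cx3cr1 (539 CPM, next 739). Its summed levels were the lowest for costimulation and checkpoints (2343 CPM, next 3257), receptors for lymphocyte cytokines (2433 CPM, next 3182) and myeloid regulators (6922 CPM, next 9235).

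In Rag2-/- mice, Lzts2 stood at 31.2 CPM (next 11.4) and Cxcl1 at 48.0 CPM (next 29.3) in replicate 4, and Ccr6 at 6.21 CPM (next 2.93) and the summed mast cell list at 18.4 CPM (next 6.79) in replicate 5. The summed erythroid list stood at 417 CPM in control replicate 2 (next 95.3).

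The genotype effect in microglia differed from that in the other cell types for 2 genes, by -8.51 on the log2 scale for Igkc and by 3.82 for Otud7a (edgeR, adjusted p = 0.00519 for both). The Igkc value includes OPCs, where no control held a count, and oligodendrocytes, where the source of the Igkc counts was not tested. Otud7a was not called in microglia alone.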

How the results depend on the processing

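The number of genes called was 1 in the fit with the low-count filter, 9 without it, 3 with a mean count of at least 10 and 3 with DESeq2 on all genes, and 1 or 2 when a library was left out (Cd3e being the gene added). Without the filter, leaving out a library gave 4 (without control replicate 2) to 18 calls (without control replicate 1), and DESeq2 gave 3. With the replicate block (littermate pair as a term), 1 gene was called with the filter and 8 without it, of which 3 (Xist, Ddx3y and Eif2s3y) are on the sex chromosomes, in a fit that has no sex term and holds the pair of unlike sex, and the number at an unadjusted p under 0.05 went from 435 to 737; leaving out a library gave 318 to 664. The difference from the other cell types was called for 2 genes, for 60 without the filter and for 45 with DESeq2, and for 2 to 3 without a library. The cause of these shifts was not tested.

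The summed T cell receptor complex level was lower in Rag2-/- mice under every alternative run. Fitted log2 differences that turned were all of genes that were not called, except Ighg1 (-7.93 to 1.43 when a library was left out). Those of Trbc1 ran from -1.74 to 0.14, Ighm from -0.094 to 0.042, P2ry12 from -0.058 to 0.10, Tmem119 from -0.11 to 0.12, Itgb5 from -0.071 to 0.025 and Cd74 from -0.014 to 0.20. With heterozygous controls only, Cd247 came to 0.025 and Ighm to 0.0395. Without pair 6, Ighm came to 0.018 and P2ry12 to -0.035, and with voom Tmem119 came to 0.022.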
